A study of Mus musculus with 8 samples.

Results

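A set of 10 genes that hold back ERK signalling was followed in mouse oocytes that had lost Kiaa1429 (Virma), which belongs to the methyltransferase complex for N6-methyladenosine (m6A), a mark on RNA. They are 5 dual-specificity phosphatase genes (Dusp6, Dusp7, Dusp1, Dusp4 and Dusp5), 3 Sprouty genes (Spry1, Spry2 and Spry4) and 2 Spred genes (Spred1 and Spred2), out of 52502 annotated genes with an exon ID in the files. They were picked by family name after Dusp6 had been seen to stand far higher in the knockout. The Dusp6 difference is therefore described without a test, and the other 9 genes were not chosen for values of their own. The mutant oocytes were Kiaa1429F/F;Zp3-Cre (cKO, 4 libraries), in which Cre under an oocyte promoter removes both floxed copies. The control oocytes were Kiaa1429F/+;Zp3-Cre (4 libraries), which carry Zp3-Cre as well and lose 1 copy. All mice were C57BL/6 females labelled as 20 days old in one field and as 3 weeks old in another, given 5 IU of PMSG, a gonadotropin that drives follicle growth. After 48 hours germinal vesicle (GV) oocytes of at least 70 µm were collected in medium with 2.5 mM milrinone, a phosphodiesterase inhibitor that keeps them in meiotic arrest. Each library pooled about 20 oocytes. The labels do not tie libraries to animals, so p-values measure the spread between libraries, and less RNA per oocyte cannot be told apart from fewer cells of a type.

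Growth factor receptors activate ERK through Grb2, Sos, Ras, Raf and MEK. ERK in turn induces genes that switch the pathway off. The Dusp proteins remove the activating phosphates from ERK and related kinases, Sprouty proteins block the step between receptor and Raf, and Spred proteins bring the Ras inactivator neurofibromin to the membrane. In fully grown mouse oocytes ERK is held inactive until meiosis resumes, when the oocyte kinase Mos turns it on.

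m6A is written at short consensus sites, and their strict form GGACT was counted in the longest coding transcript of each gene. Spry2 held 7 matches, or 3.35 per kb, more than 99.0% of the 7990 tested coding genes with a transcript. Dusp6 held 8 matches, or 2.86 per kb, more than 97.7% of those genes. The median over all of them was 1.00 per kb, and 91.4% had at least 1 match. The sites shown are those of Dusp6 close to its stop codon, the Dusp6 site with a counterpart at the same distance from the stop codon in its relative Dusp7, and the 3 that lie close together in the coding sequence of Spry2. Capitals mark GGACT, with 10 bases of the GENCODE transcript (mm10) on either side.
Dusp6, coding, 105 bases from the end of the coding sequence: aaggaccctgGGACTgagcagccct
Dusp6, coding, 22 bases from the end of the coding sequence: tctaccaggtGGACTccctgcagtc
Dusp6, 266 bases after the coding sequence: acccaagcagGGACTggacatccat
Dusp6, coding, 487 bases from the end of the coding sequence: gctgtgccaaGGACTcgaccaactt
Dusp7, coding, 487 bases from the end of the coding sequence: gctgtgccaaGGACTctaccaacct
Spry2, coding, 412 bases from the end of the coding sequence: acaggtgtgaGGACTgcggcaagtg
Spry2, coding, 358 bases from the end of the coding sequence: ccctgccgtcGGACTggatctgtga
Spry2, coding, 302 bases from the end of the coding sequence: attgactatgGGACTtgtgtgtgct

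Whether the density of GGACT goes with the difference between groups was not tested. Spry2 and Dusp6, both higher in the cKO, had the highest densities of the 10 genes. Spry1, which was lower in the cKO, held 2.16 matches per kb, more than 92.3% of tested coding genes. Dusp5, which of the 8 tested genes had the largest difference after Dusp6, held 0.81 per kb, more than 37.6%. Over all tested coding genes the median density was 0.987 per kb in those higher in the cKO, 1.03 in those lower and 1.00 in those not called. For the looser consensus named DRACH, the 10 genes lay between 14.6 and 20.4 matches per kb, against a median of 20.5 over all tested coding genes, so a high density of the strict form was not matched by the looser one. A match is a string in a transcript and was not measured as a methylated site here.

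**Figure D1:**
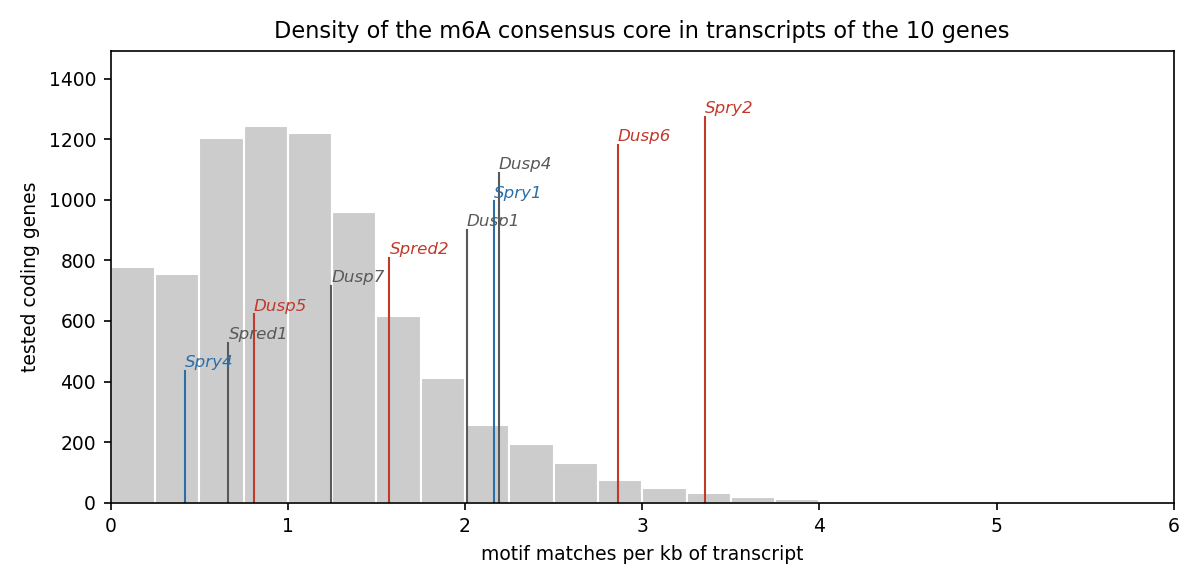
Histogram of GGACT matches per kb of transcript for the tested coding genes (x axis, matches per kb; y axis, number of genes), with a line for each of the 10 genes. Red lines are genes higher in the cKO, blue lines genes lower, and grey lines genes not called or not tested. Dusp6 (2.86 per kb) and Spry2 (3.35 per kb) lie farthest to the right, and of the genes lower in the cKO Spry1 (2.16 per kb) lies high and Spry4 (0.42 per kb) low. The 2 genes above 6 per kb are outside the axis.

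The files hold counts per exon ID, and bases that several exon IDs share cannot be assigned to one of them. Genes therefore differ in how much of them can be read. Dusp4, Dusp5, Spry2 and Spry4 had all their exon bases free of overlap, and Spred1 95.9%. The share was 70.3% in Spry1, 50.1% in Dusp7, 48.4% in Spred2, 38.2% in Dusp6 and 37.3% in Dusp1. Every Dusp6 count lay on its first exon (chromosome 10, 99263231 to 99264091, mm10, plus strand, 5' UTR and coding), while 88.1% or more of the counts of every other tested gene lay on a last exon. The cDNA was primed at the poly(A) tail, and 76.7% of all exon counts lay on last exons, so the level of Dusp6 is not on the same footing as those of the others.

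Exon counts ranged from 4399190 to 5064008 in cKO libraries and from 4247471 to 4790038 in control libraries, and 3 counts in a library came to 0.592 to 0.706 CPM, the counts scaled to library size. Virma, checked first because it is the targeted gene, averaged 19.4 ± 3.26 CPM in cKO oocytes and 67.9 ± 11.2 CPM in control oocytes (SD, n = 4 each). Its ranges of 17.0 to 24.2 and 57.1 to 82.0 CPM did not overlap, so each library went with its label. The fate of reads, as shares of those on exon IDs, ambiguous or outside exons, differed between the groups without overlap. Ambiguous reads were 78.8% to 80.4% in cKO libraries and 72.9% to 75.4% in control libraries, and reads outside exons were 5.01% to 6.19% in cKO libraries and 9.86% to 12.0% in control libraries. This difference moves with every comparison of the groups, and its part in them was not tested. No pair of libraries of 1 group was alike to within counting noise (chi-square per degree of freedom of 5.11 or more).

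Of the 10 genes 8 had enough counts to be tested; Dusp1 and Dusp4 did not. Apart from Dusp6, 3 of the 7 tested genes rose (Dusp5, Spry2 and Spred2), 2 fell (Spry1 and Spry4) and 2 did not pass the threshold (Dusp7 and Spred1), by the quasi-likelihood test of edgeR with Benjamini-Hochberg adjusted p under 0.05 over 10673 genes. Across all tested genes 27.0% were higher and 27.8% lower in the cKO, so about as many genes moved as not, and 5 of 7 is read against 54.8%. The 3 genes that rose also did so by 1 or more on the log2 scale, which 15.1% of all tested genes did. The low-count filter asked for 4 libraries at or above 2.27 CPM. Dusp6 and Dusp5 had 1 such control library each and Spry2 had 3, so all of them needed cKO libraries to be tested at all. The count of genes that rose is for that reason no support for a shared direction.

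**Figure D2:**
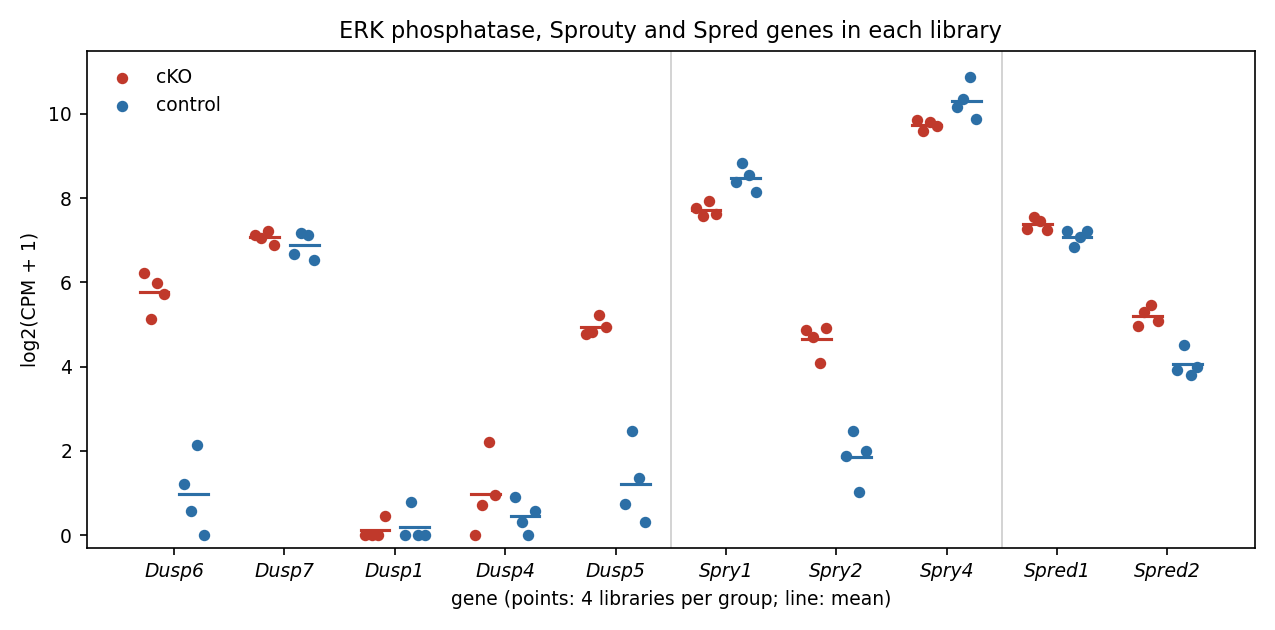
Level of each of the 10 genes in the 8 libraries, as log2(CPM + 1) on the y axis. Red points are cKO libraries and blue points control libraries, 4 each, with a line at the mean; grey lines part the phosphatase, Sprouty and Spred genes. Dusp6, Dusp5 and Spry2 lie near the bottom in control libraries and well above it in all 4 cKO libraries, while Spry1 and Spry4 lie lower in the cKO.

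Dusp6 (ENSMUSG00000019960.8, chromosome 10, 99263231 to 99267489, plus strand) encodes a cytoplasmic phosphatase specific for ERK. It stood at 73.3, 33.8, 61.9 and 52.2 CPM in cKO replicates 1 to 4, against 1.33, 0.48, 3.42 and 0 CPM in control replicates 1 to 4. Every cKO library lay far above every control library, and cKO replicate 2 was the lowest of its group. The group means were 55.3 ± 16.7 CPM in the cKO and 1.31 ± 1.51 CPM in the controls (SD, n = 4 each). In counts the cKO held 1057 and the controls 21, a ratio of 43.2 after scaling (95% Clopper-Pearson interval 28.1 to 70.1, which covers counting error only). The fitted log2 fold change was 5.40 (SE 0.49), rank 39 from the top of all tested genes. It was 6.40 without control replicate 3, the library that held 13 of the 21 control counts.

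Dusp7 encodes the other cytoplasmic ERK phosphatase of the set and is known from mouse oocytes as a factor for meiotic resumption. Its gene lies on chromosome 9, 106368632 to 106375724, plus strand. It was abundant in both groups, with 138.3, 132.2, 147.0 and 118.0 CPM in cKO libraries, against 101.6, 144.3, 137.8 and 91.3 CPM in control libraries. The groups overlapped. The log2 fold change of 0.17 ± 0.16 (SE) did not pass, with an edgeR adjusted p of 0.383. With last exons left out it was 0.80 and did not pass either. Whether Dusp7 and Dusp6 differ in their response was not tested.

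Dusp5, a nuclear phosphatase specific for ERK (chromosome 19, 53529109 to 53542431, plus strand), stood at 26.4, 27.4, 36.3 and 30.0 CPM in the cKO, against 0.67, 4.55, 1.58 and 0.25 CPM in controls. The lowest cKO library was well above the highest control library. Summed counts were 577 in the cKO and 29 in controls, a scaled ratio of 17.1 (Clopper-Pearson interval 11.8 to 25.7). Dusp5 rose 16.8-fold, or 4.07 ± 0.43 on the log2 scale (± SE), with an edgeR adjusted p of 2.39e-06. Without control replicate 2, which held 19 of the 29 control counts, the log2 fold change was 5.14. The last exon held 94.7% of the counts and rose with the gene (4.23 ± 0.41 on the log2 scale, edgeR adjusted p of 7.37e-07 over all tested exons).

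The remaining nuclear phosphatases, Dusp1 and Dusp4, act on ERK and on the stress kinases p38 and JNK. Dusp4 (chromosome 8, 34807297 to 34819894, plus strand) held 0, 3, 17 and 5 counts in the cKO libraries, against 4, 1, 0 and 2 in the control libraries. Its counts were 25 in the cKO and 7 in controls, with most of the cKO counts in replicate 3. The scaled ratio was 3.06 (Clopper-Pearson interval 1.29 to 8.39, which covers counting error only and not the spread between libraries). The groups overlapped. Dusp1 (chromosome 17, 26505590 to 26562128, minus strand) held 2 counts in the cKO and 3 in controls, so no difference was detectable at this depth. It has an exon that overlaps Ergic1 on the opposite strand, and the preparation does not mark strand. With 37.3% of its exon bases countable, so low a count does not show that the gene is silent.

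Because Dusp5 and Dusp6 differed most, the 250 bases before their RefSeq start sites (GRCm38.p6) were searched on both strands for the CArG box, bound by serum response factor, for the ETS motif CCGGAAG, the cAMP response element TGACGTCA and its part TGACG, the AP-1 motif TGANTCA and the TATA motif TATAAA. The Dusp5 window held 2 CArG boxes side by side, starting 82 and 72 bases before the start site, and 1 TGACG on the minus strand at 55 bases. In the sequences, capitals mark these matches, and the last 36 bases of the Dusp5 window, which GENCODE places in the first exon, are not shown.
Dusp5, chr19:53528895-53529108, plus strand: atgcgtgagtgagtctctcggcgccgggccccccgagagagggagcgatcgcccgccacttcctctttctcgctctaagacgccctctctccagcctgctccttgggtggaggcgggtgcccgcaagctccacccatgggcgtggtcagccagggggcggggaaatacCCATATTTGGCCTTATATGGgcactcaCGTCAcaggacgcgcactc
Dusp6, chr10:99262981-99263230, plus strand: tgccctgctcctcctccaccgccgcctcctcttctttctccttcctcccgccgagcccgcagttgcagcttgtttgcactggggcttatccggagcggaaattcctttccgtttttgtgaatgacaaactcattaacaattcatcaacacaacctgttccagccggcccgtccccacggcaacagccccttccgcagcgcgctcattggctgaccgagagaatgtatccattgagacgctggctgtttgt

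The Dusp6 window held none of these letters, nor did those of Spry2, Spry1, Spred1 and Dusp7. Spred2 had 1 TGACG at 51 bases before its start site. Dusp1 had 1 TGACGTCA at 143 bases and 3 TGACG, 2 of them within it. Among 8440 promoter windows of tested genes, 1.10% held a CArG box, 24.2% TGACG, 2.32% TGACGTCA, 11.7% CCGGAAG, 4.68% TGANTCA and 7.81% TATAAA. Windows were found for 8 of the 10 genes, all but Dusp4 and Spry4. Srf, which encodes the CArG-binding factor, was read after the boxes had been seen and averaged 79.7 ± 17.6 CPM in the cKO and 51.3 ± 16.4 CPM in controls (SD, n = 4 each), a log2 fold change of 0.63 with an edgeR adjusted p of 0.0180. For Srf the groups overlapped, with 61.8 CPM in cKO replicate 4 and 74.7 CPM in control replicate 2. Of all tested genes 27.0% were called higher in the cKO. Binding was not measured.

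The Sprouty genes moved apart. Spry2 (chromosome 14, 105891947 to 105896819, minus strand) stood at 28.4, 25.3, 15.9 and 29.4 CPM in the cKO, against 2.66, 4.55, 1.05 and 3.00 CPM in controls. All cKO libraries were above all control libraries, cKO replicate 3 being the lowest. Spry2 rose 8.64-fold, or 3.11 ± 0.32 on the log2 scale (± SE), with an edgeR adjusted p of 6.17e-07 and 478 counts in the cKO and 47 in controls.

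Spry4, the most abundant of the 10 genes, lies on chromosome 18, 38586247 to 38601415, minus strand. It stood at 919.5, 774.9, 897.7 and 842.4 CPM in the cKO, against 1138, 1312, 1876 and 939.8 CPM in controls. The groups did not overlap, but the highest cKO library came close to the lowest control library, and the controls spread over a wider range. Spry4 fell 1.53-fold (log2 fold change -0.62 ± 0.17 SE), with an edgeR adjusted p of 0.00623. This is the difference on its last exon, which held 99.5% of the counts. With last exons left out only the non-coding first exon remained, with 95 counts in the cKO and 82 in controls, and the gene stood at 0.16 ± 0.29 on the log2 scale (± SE), with an edgeR adjusted p of 0.693. The first exon was not shown to behave otherwise than the last (usage test of diffSpliceDGE, adjusted p = 0.336).

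Spry1 (chromosome 3, 37639947 to 37644598, plus strand) stood at 218.5, 188.9, 241.6 and 195.9 CPM in the cKO, against 333.8, 454.8, 370.9 and 282.9 CPM in controls. The groups did not overlap. Spry1 fell 1.71-fold (log2 fold change -0.77 ± 0.15 SE), with an edgeR adjusted p of 0.000401. All of its counts lay on the last exon, and an exon of the gene is overlapped by Gm42922 on the opposite strand.

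Of the Spred genes, Spred2 (chromosome 11, 19924375 to 20024026, plus strand) had 30.4, 38.03, 43.2 and 32.8 CPM in the cKO, against 14.2, 22.0, 12.9 and 15.0 CPM in controls. Each cKO library was above each control library. Spred2 rose 2.25-fold, or 1.17 ± 0.20 on the log2 scale (± SE), with an edgeR adjusted p of 0.000134. With last exons left out the log2 value was 2.33. It was the only one of the 9 genes with an internal coding exon that could be tested. That exon (19998120 to 19998297) had 84 counts in the cKO and 14 in controls, or 2.34 ± 0.49 on the log2 scale (edgeR adjusted p of 0.000775), and the last exon stood at 1.08 ± 0.23 (edgeR adjusted p of 0.000833), where 53.4% of all tested exons were called. The usage test did not separate them (adjusted p = 0.154), where 13.5% of exons tested for usage were called.

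Spred1 (chromosome 2, 117121374 to 117182279, plus strand) had 153.3, 185.5, 175.6 and 151.1 CPM in the cKO, against 148.8, 113.2, 134.7 and 147.1 CPM in controls. The groups did not overlap, by a narrow margin. The log2 fold change of 0.29 ± 0.14 (SE) did not pass, with an edgeR adjusted p of 0.0834. Groups did not overlap in 6 of the 7 tested genes besides Dusp6, beside 50.1% of all tested genes. Dusp5 and Spry2 are among the 6 and needed the cKO libraries to be tested, so nothing is read from this count.

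**Figure D3:**
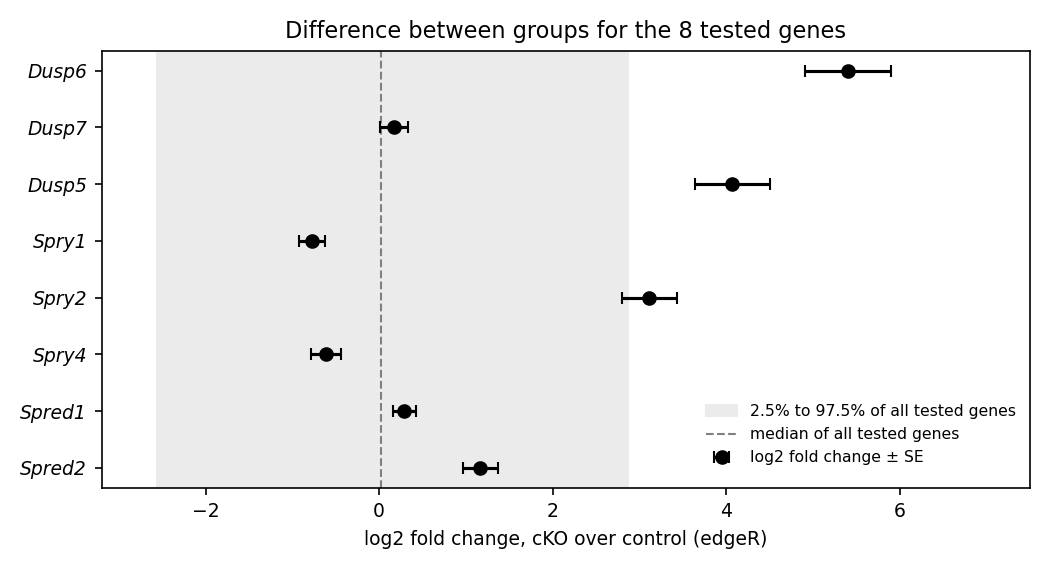
Log2 fold change, cKO over control, with its standard error (x axis) for the 8 tested genes (rows). The grey band spans the central 95% of all tested genes, -2.56 to 2.86, and the dashed line their median of 0.02. Dusp6, Dusp5 and Spry2 lie to the right of the band, and Spry1 and Spry4 lie to the left of 0 within it.

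The order of levels changed with these differences. Dusp6 was read on its first exon and the other tested genes on a last exon, where most counts of these libraries lie. The place of Dusp6 in the order is therefore not comparable with theirs. On their first exons, Dusp7 had 78 counts in the cKO and 42 in controls, and Dusp6 had 1057 in the cKO and 21 in controls. Per kb of countable bases on the exon that held most counts, the cKO order was Spry4 at 189.3 ± 14.1 CPM per kb, Dusp7 at 153.1 ± 15.2, Spry1 at 103.3 ± 11.7, Dusp6 at 64.2 ± 19.4, Spred1 at 33.3 ± 3.36, Spred2 at 21.5 ± 4.36, Dusp5 at 18.9 ± 2.76 and Spry2 at 13.3 ± 3.28 (SD, n = 4). In that order the ranges of Spred2 and Dusp5 overlapped, and those of the other neighbours did not. The control order was Spry4 at 290.8 ± 88.9 CPM per kb, Spry1 at 176.4 ± 35.4, Dusp7 at 136.9 ± 28.8, Spred1 at 27.3 ± 3.29 and Spred2 at 10.3 ± 3.32, followed by Dusp6, Spry2 and Dusp5 between 1.00 and 1.52 with ranges that overlapped. The ranges of Spry4 and Spry1 overlapped as well, and so did those of Spry1 and Dusp7. Dusp4 averaged below 1 CPM per kb in both groups. Dusp1 had 45 countable bases on its best exon, too few for a level per kb.

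Shares within each class were described and not tested. Those of the phosphatases set the first exon of Dusp6 against last exons of the others, so they and their sum do not give relative amounts of transcript. Dusp6 made up 26.8% ± 5.86 of the summed level per kb of the 4 countable phosphatases in the cKO and 1.02% ± 1.10 in controls, and Dusp7 made up 64.9% ± 5.27 in the cKO and 98.1% ± 1.05 in controls. Their sum was 237.0 ± 30.6 CPM per kb in the cKO and 139.7 ± 30.3 CPM per kb in controls. Among the Sprouty genes Spry2 made up 4.39% ± 1.19 in the cKO and 0.345% ± 0.177 in controls. Spry4 made up 61.9% ± 0.697 in the cKO and 61.5% ± 5.62 in controls, and Spry1 33.7% ± 1.84 in the cKO and 38.2% ± 5.45 in controls. The Sprouty sum was lower in the cKO, with 306.0 ± 23.2 CPM per kb in the cKO and 468.7 ± 109.3 in controls (SD, n = 4 each). Spred2 made up 39.0% ± 3.30 of the Spred sum in the cKO and 27.3% ± 8.5 in controls, and Spred1 the rest. These sums follow from the values above and were not tested. Dusp5, Dusp6 and Spry2 were near the detection limit in controls and measurable in all cKO libraries, while the abundant genes Dusp7 and Spred1 did not pass the test and Spry4 and Spry1 were lower in the cKO.

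The 5 genes whose log2(CPM + 1) followed that of Dusp6 most closely over the 8 libraries were Tpi1, a glycolytic enzyme, Ddx20, an RNA helicase, Mrpl44, a mitochondrial ribosomal protein, Slc25a20, a mitochondrial carnitine carrier, and Dclk3, a kinase, with Pearson r from 0.991 to 0.997. Among the 10 genes the values were 0.93 for Dusp5, 0.87 for Spry2 and 0.84 for Spred2. The 8 points fall into the 2 groups and share their scaling, so r mostly records the difference between groups, and 1129 tested genes had r above 0.9.

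Other genes of the pathway were read in 10 lists of 186 genes. Of these 95 could be tested, 42 rose and 19 fell, or 44.2% and 20.0%, beside 27.0% and 27.8% of all tested genes. The median log2 fold change was 0.33 over the listed genes and 0.02 over all tested genes. As among the 10 genes, some listed genes passed the low-count filter only through the group where they were higher. The counts in these lists are for that reason no support for a shared direction. Among the other MAPK phosphatases 3 were tested. Dusp10, which acts on p38 and JNK, fell to 169.6 ± 16.0 CPM in the cKO, against 241.8 ± 35.02 CPM in controls (log2 fold change -0.51, adjusted p = 0.00470, edgeR), and Dusp2 and Dusp8 did not pass. Of 6 atypical dual-specificity phosphatases 3 rose and none fell, Styx, a pseudophosphatase, by 1.31, Dusp12 by 0.99 and Dusp11, an RNA phosphatase, by 0.73 on the log2 scale. Of 11 further feedback inhibitors 2 rose and 3 fell. Socs2, an inhibitor of cytokine receptor signalling, averaged 23.2 ± 5.65 CPM in the cKO and 4.86 ± 1.22 CPM in controls. The Ras GTPase activators split, with log2 fold changes of 0.99 for Rasal2 and -1.89 for Rasal1. Nf1, the partner of the Spred proteins, had 10.8 CPM in the cKO and 7.89 in controls (adjusted p = 0.112, edgeR).

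Ligands and receptors moved in both directions. Of 10 ligands 4 rose and 4 fell. Tgfa, a ligand of the EGF receptor, averaged 16.2 ± 2.29 CPM in the cKO and 50.2 ± 13.6 CPM in controls, Nrg1, a ligand of ERBB receptors, 9.82 ± 0.90 in the cKO and 21.7 ± 1.98 in controls, and Fgf8, which the oocyte sends to cumulus cells, 23.2 ± 2.35 in the cKO and 43.9 ± 8.67 in controls. Of 9 receptor tyrosine kinases 3 rose and 3 fell. Erbb3 stood at 21.6 ± 5.55 CPM in the cKO and 3.07 ± 0.76 CPM in controls, while Fgfr1 and Flt1 had log2 fold changes of -1.09 and -0.999.

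Of 12 tested adaptors, Ras proteins and exchange factors 9 rose and 1 fell, or 75% and 8.33%, beside 27.0% and 27.8% of all tested genes. Sos1, which loads Ras with GTP, averaged 46.8 ± 12.1 CPM in the cKO and 10.2 ± 3.09 CPM in controls, and Grb2, the adaptor that carries it, 22.0 ± 5.20 CPM in the cKO and 4.84 ± 2.21 CPM in controls. Rras2 fell by 1.70 on the log2 scale. Of 9 kinases of the ERK arm 2 rose and 2 fell. Braf rose by 1.201 and the scaffold Ksr1 fell by 1.78 on the log2 scale, and Mos stood at 3184 ± 233.9 CPM in the cKO and 4852 ± 423.4 CPM in controls. Mapk3, which encodes an ERK, stood at 496.3 CPM in the cKO and 459.0 CPM in controls and did not pass (adjusted p = 0.562, edgeR).

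Of 12 p38 and JNK kinases and partners 5 rose and 2 fell, with log2 fold changes of 1.13 for Tab2, 0.91 for Tab3 and -0.99 for Map3k5. With last exons left out Tab3 stood at 1.499 and Map3k5 at -2.23. In the list of kinases downstream of ERK 4 were tested, of which 3 rose and 1 fell. Among the 3 was Mapkapk2, which p38 activates (log2 fold change 0.93, adjusted p = 0.0295, edgeR), so this count is not one of ERK targets alone. Rps6ka5 and Mknk1 rose by 0.62 and 0.60 on the log2 scale, and Rps6ka3, at 1.86 CPM in the cKO and 3.62 CPM in controls, had a log2 fold change of -0.93 (adjusted p = 0.0249, edgeR) that did not pass under 5 other settings. Rps6ka5 did not pass without cKO replicate 2 (adjusted p = 0.0576, edgeR).

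Transcription factors and early genes downstream of ERK included 11 that rose and 2 that fell of 19 tested, or 57.9% and 10.5%, with a median log2 fold change of 0.88. Klf2 stood at 15.9 ± 6.39 CPM in the cKO and 0.72 ± 0.35 CPM in controls, and Klf10 at 231.3 ± 46.3 CPM in the cKO and 54.0 ± 21.8 CPM in controls. Atf3, a stress-induced factor, fell to 2.98 ± 0.98 CPM in the cKO, against 12.3 ± 2.98 CPM in controls. Fos and Egr1, the usual early markers of ERK activity, were looked up after the values had been seen. Fos had 4.21, 31.2, 14.6 and 16.1 CPM in the cKO, against 2.22, 3.83, 1.58 and 0.75 CPM in controls. Egr1 had 0 CPM in all cKO libraries and 0.25 CPM in 1 control library, and 16 genes of this list, Jun, Myc and Etv5 among them, had too few counts to be tested. Phosphorylated ERK was not measured in these libraries.

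**Figure D4:**
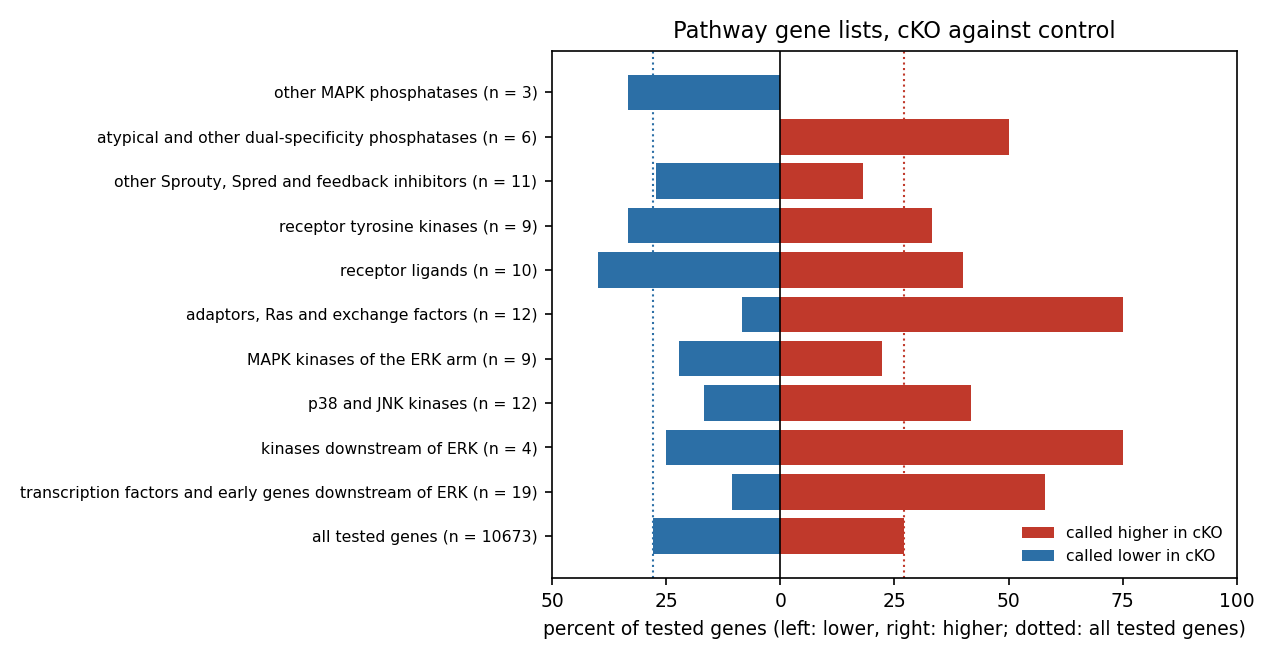
Percent of tested genes called higher (red, to the right) and lower (blue, to the left) in the cKO, by edgeR with adjusted p under 0.05, for the 10 pathway lists and for all tested genes (bottom row), with the number tested beside each name. Dotted lines mark 27.0% higher and 27.8% lower, the shares over all tested genes. Of the 10 lists 7 lie beyond 27.0% on the right, from receptor tyrosine kinases (33.3%) to adaptors and to kinases downstream of ERK (75% each), with 4 to 19 genes tested in each. The list of kinases downstream of ERK holds Mapkapk2, which p38 activates. Some listed genes passed the low-count filter only through the group where they were higher.

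Markers of other cells were read because granulosa and cumulus cells, which surround the oocyte, also use ERK and its feedback genes. The 16 cumulus and granulosa markers summed to 377.8 to 663.6 CPM in the cKO and 205.4 to 376.0 CPM in controls, and 1 of 7 tested rose and 2 fell. The groups did not overlap, which gives the smallest p that 4 against 4 libraries allow (exact permutation p = 0.0286, two-sided), and the sum did not pass after Benjamini-Hochberg adjustment over 6 marker sums (0.0571). It was led by Nr5a2, the only marker of the 7 that rose, at 322.8 ± 26.8 CPM in the cKO and 138.7 ± 36.4 CPM in controls. Inha came next, at 173.5 ± 108.7 CPM in the cKO and 66.1 ± 29.4 CPM in controls, and did not pass (adjusted p = 0.0788, edgeR). The 2 that fell were Cyp19a1, at 12.6 ± 2.81 CPM in the cKO and 27.4 ± 6.34 CPM in controls, and Fshr. Fshr was at 6.25 ± 3.04 CPM in the cKO and 19.6 ± 12.2 CPM in controls (adjusted p = 0.00902, edgeR). The sum without Nr5a2 was not tested. Nr5a1 was at 0 in all libraries. The 8 cumulus expansion markers summed to 22.1 to 35.7 CPM in the cKO and 4.21 to 7.98 CPM in controls (exact permutation p = 0.0286, two-sided; 0.0571 after adjustment), most of it Ptgs2 at 25.0 ± 5.84 CPM in the cKO and 3.36 ± 1.15 CPM in controls. Areg, Ereg and Btc, the EGF-like factors of granulosa cells, were at 0 in all 8 libraries.

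By library, Inha stood at 45.4, 177.2, 160.6 and 310.8 CPM in cKO replicates 1 to 4, against 54.8, 59.6, 41.3 and 108.6 CPM in control replicates 1 to 4, and the groups overlapped. Nr5a2 stood at 308.4, 328.1, 358.1 and 296.8 CPM in the cKO, against 154.4, 110.6, 107.1 and 182.6 CPM in controls. Ptgs2 stood at 21.0, 32.3, 19.6 and 27.0 CPM in the cKO, against 4.88, 2.15, 2.89 and 3.50 CPM in controls. Nr5a2 and Ptgs2 thus had groups that did not overlap, and so did 50.1% of all tested genes. Cyp19a1 did not overlap in the other direction, at 8.60 to 15.2 CPM in the cKO and 20.8 to 35.8 CPM in controls. Oocyte markers, 14 genes led by Gdf9, Bmp15 and Dppa3, summed to 20978.5 to 24665 CPM in the cKO and 36250.1 to 48886 CPM in controls (exact permutation p = 0.0286, two-sided; 0.0571 after adjustment), and 1 of 13 tested rose and 5 fell. No marker sum passed after adjustment, and for theca and stroma, vessel, and immune and blood markers the unadjusted p was 0.6, 0.771 and 0.657 (exact permutation, two-sided). Theca and stroma markers summed to 1.55 to 3.37 CPM in the cKO and 1.68 to 3.00 CPM in controls, led by Dcn, Col1a1 and Col1a2. Vessel markers summed to 6.59 to 13.3 CPM in the cKO and 7.75 to 13.9 CPM in controls, led by Kdr, Pecam1 and Tek. The immune and blood list summed to 358.2 to 466.2 CPM in the cKO and 343.3 to 417.0 CPM in controls, nearly all of it C1qb at 384.4 ± 49.8 CPM in the cKO and 376.9 ± 34.5 CPM in controls, with Ptprc, Adgre1 and Cd74 at 0 throughout. C1qa was at 7.003 ± 1.64 CPM in the cKO and 0.18 ± 0.22 CPM in controls. The part of granulosa or cumulus RNA in the differences of the feedback genes was not tested.

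**Figure D5:**
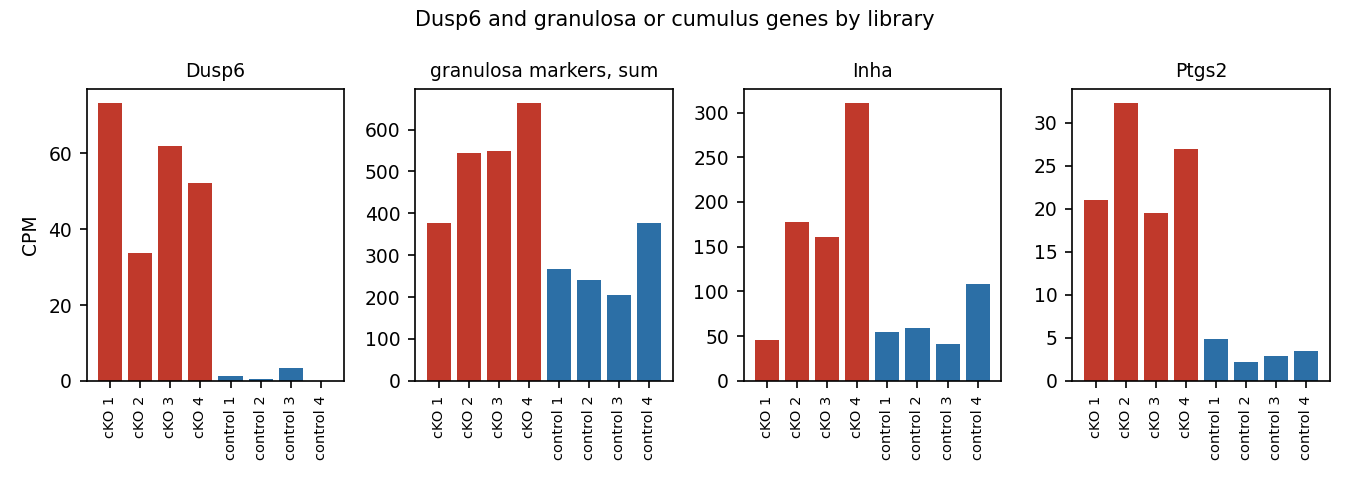
CPM of Dusp6, of the summed cumulus and granulosa markers, of Inha and of Ptgs2 in each library (x axis, cKO replicates 1 to 4 in red, then control replicates 1 to 4 in blue; y axes start at 0). Dusp6, Ptgs2 and, by a narrow margin, the marker sum, which was led by Nr5a2, are higher in every cKO library than in every control library. Inha overlaps between the groups, with 45.4 CPM in cKO replicate 1 and 108.6 CPM in control replicate 4.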

How the data were processed

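Per the submitters' processing notes STAR, HTSeq and the build mm10 were used. Tool versions, counting options and annotation: not given in the sources used here. The authors deposited raw counts for 496288 exon IDs per library, plus 5 summary rows that stayed out of all sums. Shares of reads are of those on exon IDs, ambiguous or outside exons, with the other summary rows left out. Counts on exon IDs were 14.6% to 15.6%. Ambiguous reads were 78.8% to 80.4% in cKO and 72.9% to 75.4% in control libraries. Reads outside exons were 5.01% to 6.19% in cKO and 9.86% to 12.0% in control libraries. Of the IDs 99.6% matched GENCODE M21 (versions ignored), and the unmatched ones held 0.252% of counts. Gene sums were filtered (filterByExpr, minimum count 10), TMM-scaled and tested with edgeR 4.0.16 (quasi-likelihood, group as the only term, two-sided); the standard error is the log2 fold change over the root of F. Exon usage was tested with diffSpliceDGE. DESeq2 1.42.0 was an alternative. CPM use TMM-scaled library sizes. Transcripts are GENCODE M21 and promoters RefSeq.

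The genes, lists and tests were chosen with earlier results of these data known. Named genes are all 10 genes and up to 3 of smallest p per pathway list among called genes. Up to 3 most abundant per marker list and the 5 nearest to Dusp6 are named as well. Nf1, Nr5a1, Areg, Ereg, Btc, Mapk3, Dusp2, Dusp8, Srf, Fos and Egr1 were added after their values were seen. So were Jun, Myc, Etv5, C1qa, Ptprc, Adgre1, Cd74, Fshr and Mapkapk2. Spry3 had no entry under that symbol in the annotation used. On simulated counts for cKO against control (10388 genes tested, 200 set to change), the test called 12.5% of genes changed 1.5-fold, 71.4% at 2-fold and 100% at 4-fold. In the data 54.8% of tested genes were called, and the adjustment depends on that share. The simulated shares therefore do not give the power of the test on the data. The labels speak of separate experiments without saying whether replicate numbers mark them, so libraries were treated as unpaired. Same-numbered libraries deviated together with r of -0.05 to 0.10, others with -0.20 to 0.19. With so few libraries these values cannot exclude pairing.
Alternatives were DESeq2, RLE and upper-quartile factors, no filter, a minimum count of 30, coding genes only, last exons left out, the robust step off, a replicate block and each library left out. A result on 1 further gene is not reported here.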

Additional observations from a re-analysis of the deposited data

Results flagged for a closer look

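Among 32 groups of 4 libraries checked for a library far from the others, 3 stood out, where chance gives about 1 in 20 groups. Dusp1 was flagged in both groups because a single library held its few counts, cKO replicate 4 at 0.374 CPM and control replicate 2 at 0.718 CPM with the other 3 libraries of each group at 0. These are 2 and 3 counts. The summed oocyte markers were 48885.8 CPM in control replicate 3, against 38227 CPM in the next control library. That library also had the highest Spry4 of all libraries (1876 CPM), and without it Spry4 was still lower in the cKO (log2 fold change -0.39, edgeR adjusted p of 0.0162).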

How the results depend on the processing

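For the 7 tested genes besides Dusp6, 114 of 115 values under the other settings kept their direction and their side of the threshold. The exception is Spry4 with last exons left out, at 0.16 on the log2 scale, where only its first exon remains. With last exons left out, 3 of the 7 genes could be tested, of which 1 rose and 0 fell; 974 genes in all were higher and 991 lower, and 11 pathway genes rose and 7 fell, fewer because fewer genes could be tested. Under the remaining settings 2165 to 3889 genes were higher and 2091 to 3725 lower, against 2879 and 2970 in the reported test. When each library was left out in turn, 2606 to 3071 genes were higher and 2767 to 3016 lower, 36 to 44 pathway genes rose and 15 to 19 fell, and 3 genes of the set were higher and 2 lower each time. The first exon of Dusp7 passed without control replicate 3 (adjusted p of 0.0306, edgeR), and the last exon of Spred1 without cKO replicate 4 (0.0491). Under the replicate block 2901 genes were higher and 2920 lower and no call among the 10 genes changed; since the numbers share no stated source, this is no evidence of pairing. Rescaling by RLE or upper-quartile factors moved no unadjusted p of a marker sum across 0.05, and these scalings of the sums were chosen after seeing the data. RLE factors shifted all genes by -0.003, upper-quartile factors by 0.009 and testing only coding genes by -0.09 on the log2 scale. Few control counts limit the size, not the direction, of the Dusp6 and Dusp5 differences: the fitted folds moved by 2.00 and 2.10 times without control replicate 3 and control replicate 2. A low count on an exon that others overlap does not measure a low level.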
